A study of Mus musculus with 6 samples.

Results

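The genes described here make sphingolipids or break them down outside the lysosome. They were 34 named genes, each matched by symbol to a row of the 55487-gene count table, with no symbol repeated. RNA was sequenced from 4T1 cells, a mouse mammary carcinoma line, after 12 h with 10 µM cepharanthine (CEP), a plant bisbenzylisoquinoline alkaloid, or after 12 h with an equal volume of its solvent, dimethyl sulfoxide (DMSO). Each group had 3 libraries, and the comparison asked which transcripts differed between treated and solvent-exposed cells. No genotype change or other agent is named in the labels, both groups are the same cell line, and nothing says whether replicates came from separate cultures, so p-values measure the spread between these libraries.

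Sphingolipids are built in the endoplasmic reticulum, where serine palmitoyltransferase joins serine to palmitoyl-CoA and further enzymes turn the product into ceramide. Ceramide is carried to the Golgi, where it gains a phosphocholine head group to become sphingomyelin or sugars to become glycosphingolipids. Sphingomyelinases, ceramidases and kinases take these lipids apart again, down to the signalling lipid sphingosine 1-phosphate, whose cleavage by a lyase is the exit from the pathway.

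Library totals ran from 15299261 to 19411816 counts in CEP and from 15334482 to 19655010 in DMSO. Of 8 epithelial carcinoma markers all 8 were measured above the low-count filter, with a summed level of 3944 to 4248 CPM (counts scaled to a common library size by trimmed mean of M-values, TMM) in CEP and 4320 to 4480 CPM in DMSO. Of these 8, 5 rose and 3 fell with CEP by the test given below, where 20.1% of all 13405 genes tested rose and 18.2% fell. The summed level of leukocyte markers, 39.1 to 54.7 CPM in CEP and 15.2 to 19.6 CPM in DMSO, was nearly all Cd68 (48.1 and 17.3 CPM on average), which encodes a protein of late endosomes and lysosomes. Lyz2 and Adgre1 were at 0 in every library, and Ptprc, which encodes the pan-leukocyte protein CD45, averaged 0.0543 CPM in CEP and 0.115 CPM in DMSO. The 4 endothelial markers summed to 0.157 to 0.520 CPM in CEP and 0.177 to 0.460 CPM in DMSO. The 5 fibroblast markers summed to 85.7 to 101 CPM in CEP and 62.8 to 69.5 CPM in DMSO, nearly all of it Pdgfra. The share of counts from mitochondrially encoded genes was 2.43 to 2.89% in CEP and 1.66 to 1.92% in DMSO, and its part in the results below was not tested. In bulk RNA, fewer cells of a kind and less RNA per cell cannot be told apart.

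Transcripts of ceramide assembly rose together under cepharanthine, as did those of sphingosine 1-phosphate cleavage and of a lysosomal lipid exporter. The transcript of the sphingosine 1-phosphate exporter did not pass the test. Of 5 tested genes of non-lysosomal breakdown 2 rose, 0 fell and 3 did not pass. Of the 34 genes 29 passed the low-count filter. Among these 29, 17 rose, 2 fell and 10 did not pass (quasi-likelihood test of edgeR, adjusted p under 0.05 by Benjamini-Hochberg over 13405 genes). Among all genes tested 38.2% passed, 20.1% higher and 18.2% lower with CEP, against 58.6% higher and 6.90% lower among the 29. The 34 genes were chosen with earlier results of these data known, so this contrast is not an unbiased measure. The changes were modest. Fold changes of the 29 ran from -0.26 to 0.77 on the log2 scale with a median of 0.17, beside a median of 0.01 over all tested genes, and 0 of them passed with a change of 2-fold or more.

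**Figure D1:**
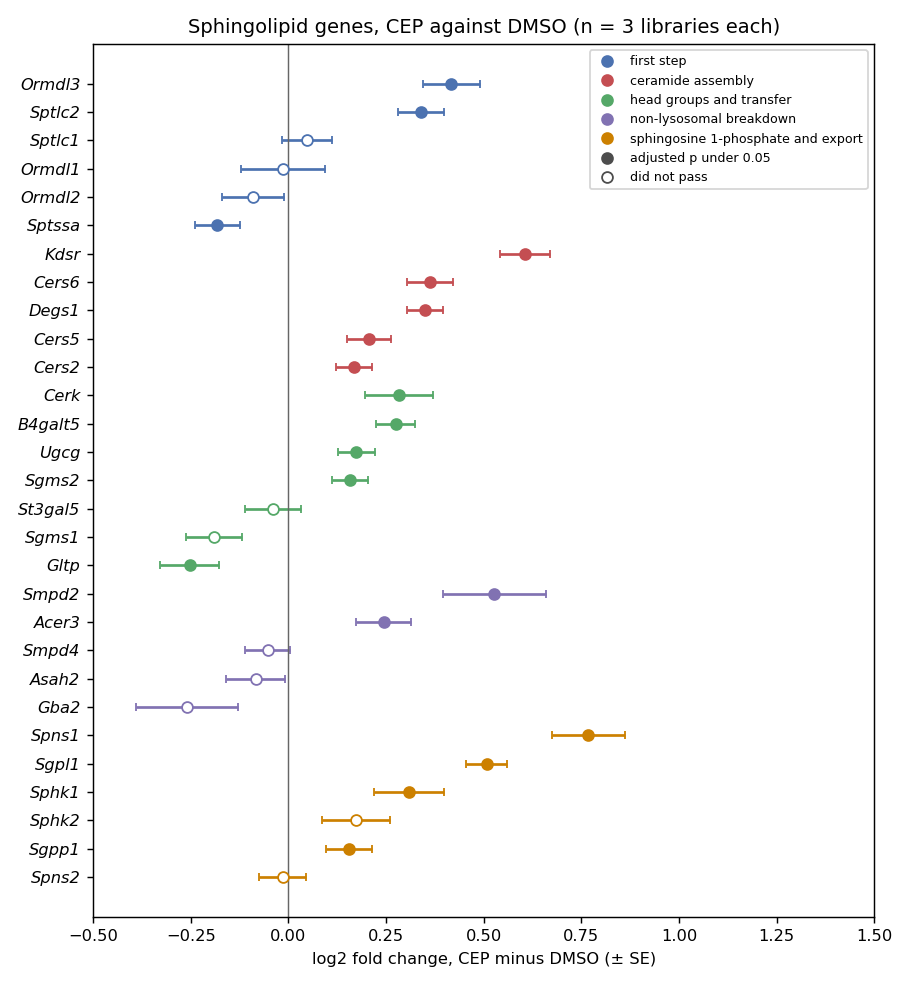
Log2 fold change, CEP minus DMSO, with its standard error (x axis) for the 29 tested genes, grouped by role; filled points passed the adjusted p threshold of 0.05 and open points did not. All 5 tested ceramide assembly genes lie right of 0, Spns1 lies farthest right at 0.77, and the 2 filled points left of 0 are Sptssa and Gltp.

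CEP replicate 1 stood nearer to the DMSO libraries than the other CEP libraries did. Over the 17 genes that rose, log2(CPM + 0.5) exceeded the mean of the DMSO libraries by 0.26 on average in CEP replicate 1, 0.36 in CEP replicate 2 and 0.40 in CEP replicate 3, and CEP replicate 1 was the lowest CEP library for 13 of the 17. For the 2 genes that fell these differences were -0.08, -0.28 and -0.30. Without CEP replicate 1, the same 17 genes rose and 3 fell, while over all genes tested 24.8% rose and 25.7% fell. When any 1 of the other libraries was left out, between 12 and 15 genes rose and between 0 and 2 fell, while over all genes tested 14.8 to 16.3% rose and 12.6 to 14.95% fell. Rises of 9 genes passed under each of the 13 alternatives tried, which included leaving out each library: Sptlc2, Ormdl3, Kdsr, Cers6, Degs1, B4galt5, Smpd2, Sgpl1 and Spns1.

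**Figure D2:**
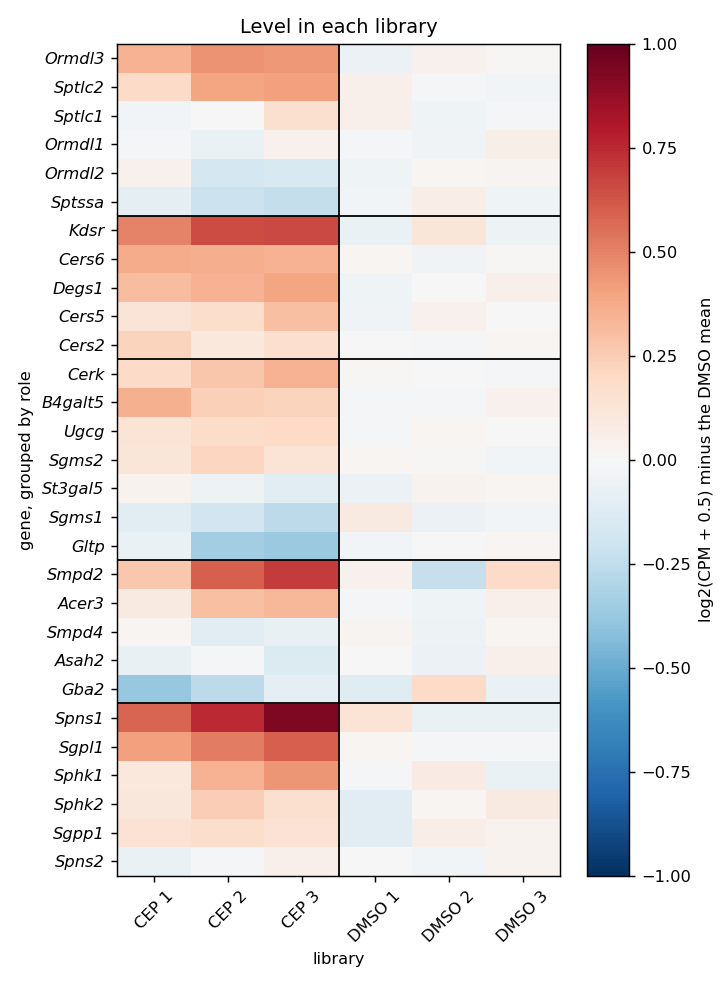
Colour gives log2(CPM + 0.5) minus the DMSO mean for each tested gene (rows, grouped by role) in each library (columns, CEP left of DMSO). Most rows of ceramide assembly and of sphingosine 1-phosphate handling are red in all 3 CEP libraries, most often palest in CEP replicate 1, and the DMSO columns are near white for most genes, with more spread for Smpd2 and Gba2.

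**Figure D3:**
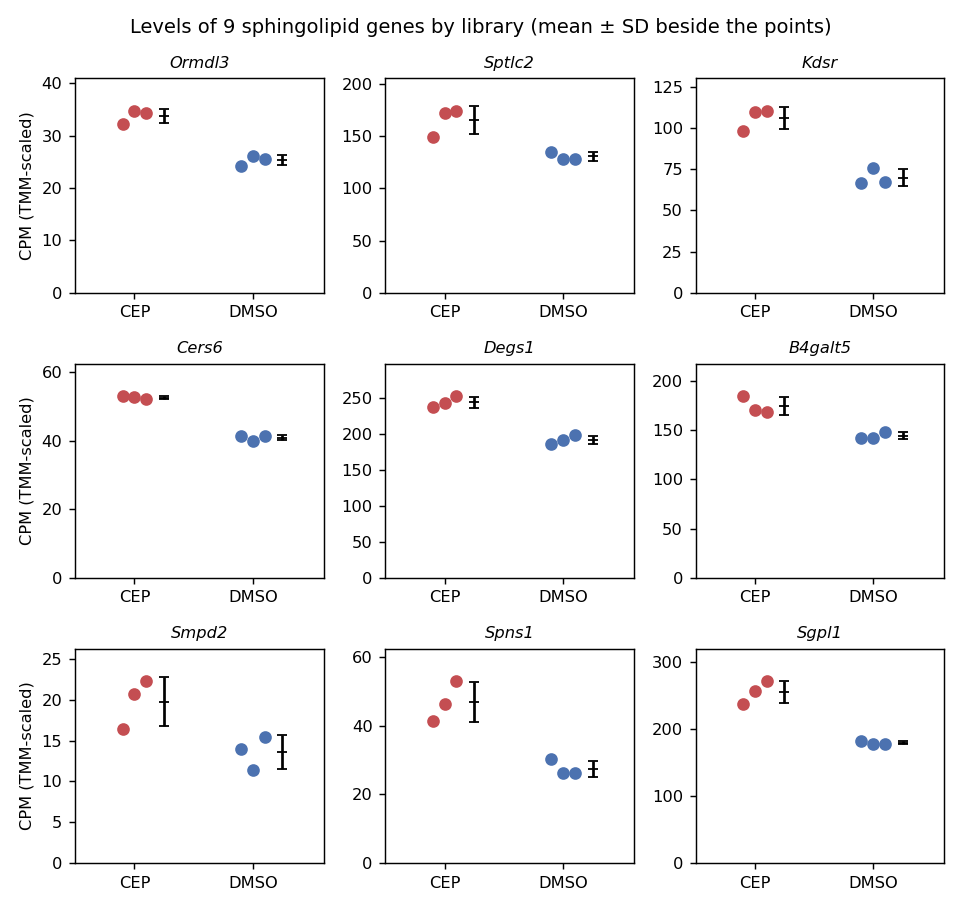
TMM-scaled CPM in each library (points) with mean ± SD beside them for the 9 genes whose rise passed under every alternative. The 3 CEP libraries lie above the 3 DMSO libraries in each panel; the closest are those of Smpd2, at 16.4 CPM in the lowest CEP library and 15.5 CPM in the highest DMSO library.

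Promoter windows of 32 of the 34 genes were found in RefSeq on GRCm38.p6 (250 bases before to 50 after each RNA start). The 6-base E-box CACGTG, a palindrome that MiT/TFE and MYC family factors can bind, stood in at least 1 window of 6 of these genes. All 6 were among the 17 that rose, and 0 of the other 15 genes held it. These 15 include Sptlc3, Cers4 and Acer2, which were too low to be tested. Of the 6, Cers2, Sgms2 and Sphk1 lost their call in 1, 3 and 4 of the 13 alternatives. Over the 9606 tested genes with a window 11.9% held it, beside 18.75% of the 32. Among these 9606 genes it was in 15.3% of those that rose, 12.1% of those that fell and 10.6% of those that did not pass. Over all genes with a window, tested or not, 8.09% held it, and 7.15% of all 32851 windows did. The 60 bases around each match are shown 5′ to 3′ on the gene's strand, with the E-box in capitals, because these are the letters that the 6 rising genes share.
Cers2: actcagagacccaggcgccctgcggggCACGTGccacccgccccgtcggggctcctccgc
Cers6: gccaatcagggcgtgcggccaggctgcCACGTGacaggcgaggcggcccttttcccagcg
Degs1: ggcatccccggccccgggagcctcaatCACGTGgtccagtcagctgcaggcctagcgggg
Smpd2: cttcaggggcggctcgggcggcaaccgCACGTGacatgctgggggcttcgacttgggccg
Sgms2: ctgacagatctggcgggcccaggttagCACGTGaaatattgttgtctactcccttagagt
Sphk1: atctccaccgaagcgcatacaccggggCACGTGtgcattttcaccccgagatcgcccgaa

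These windows lie at chr3:95315034-95315093 (+ strand, Cers2), chr2:68861392-68861451 (+, Cers6), chr1:182282206-182282265 (-, Degs1), chr10:41490502-41490561 (-, Smpd2), chr3:131489127-131489186 (-, Sgms2) and chr11:116532322-116532381 (+, Sphk1) on GRCm38.p6. Cers6 and Degs1 have the match closest to the RNA start, with the first base of the E-box at positions -22 and -43. In Cers2, which has 2 starts in the table, it lies at -129, and in Smpd2 at -194. Sgms2 has 6 starts in the table, of which 1 window held the E-box, and in Sphk1, with 5 starts, it came from 2 windows that overlap. Genes with several starts had more bases searched, and the share of starts used in 4T1 cells was not analysed here. The CLEAR element of lysosomal genes, which is the E-box with fixed flanking bases, was in the windows of 0 of the 32 genes, of 0.833% of tested genes and of 1.61% of those that rose. The core TGATGNAA of the C/EBP-ATF response element was in windows of 1 of the 32 genes, Sgms2, of 2.63% of tested genes and of 3.61% of those that rose. Over all genes with a window the shares were 0.370% for the CLEAR element and 4.51% for this core, and over all windows 0.326% and 3.97%. The sterol response element and the endoplasmic reticulum stress element were in 0 of the 32 genes and in 0.0625% and 0.167% of tested genes. They were in 0.0999% and 0.137% of all genes with a window, and in 0.0913% and 0.119% of all windows. Each motif was searched on both strands, and a match or its absence describes only the letters of these windows.

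At the first step, the catalytic subunit gene Sptlc2 rose while its partner Sptlc1 did not pass. Sptlc2, whose product joins Sptlc1's to form the serine palmitoyltransferase core, had 149.8, 172 and 174 CPM in CEP replicates 1 to 3, against 135, 129 and 128 CPM in DMSO replicates 1 to 3. All CEP libraries were above all DMSO libraries, and the log2 fold change was 0.34 ± 0.0585 (SE, edgeR adjusted p = 4.57e-04). Sptlc1 averaged 55.6 ± 3.84 CPM in CEP and 53.8 ± 1.84 CPM in DMSO (SD, n = 3 each), with a log2 fold change of 0.05 and a 95% interval of -0.08 to 0.17 (edgeR adjusted p = 0.59). The alternative catalytic subunit Sptlc3 had 0 counts in each of the 6 libraries, where the limit that a count of 0 allows, 3 counts, is 0.153 to 0.197 CPM per library. Sptssa encodes the small subunit that raises the enzyme's activity, and it was 1 of the 2 members that fell, with 74.9, 68.9 and 67.9 CPM in CEP and 78.7, 84.0 and 77.9 CPM in DMSO. Its groups did not overlap (-0.18 ± 0.0579, SE, edgeR adjusted p = 0.0224), but the call ended when any 1 of 3 libraries was left out, CEP replicates 2 and 3 and DMSO replicate 2 (edgeR adjusted p = 0.0844, 0.0909 and 0.111).

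The ORMDL proteins hold serine palmitoyltransferase in check when ceramide is plentiful. Of their genes Ormdl3 rose, with 32.3, 34.7 and 34.4 CPM in CEP against 24.3, 26.1 and 25.5 CPM in DMSO. The groups lay well apart (0.42 ± 0.0729, SE, edgeR adjusted p = 5.00e-04). Ormdl1 averaged 10.8 ± 0.454 CPM in CEP and 10.9 ± 0.410 CPM in DMSO (SD, n = 3 each). Ormdl2 averaged 28.1 ± 2.47 CPM in CEP and 30.0 ± 0.850 CPM in DMSO. Neither passed, with 95% intervals of the log2 fold change of -0.22 to 0.20 for Ormdl1 and -0.25 to 0.07 for Ormdl2. Per length of exon, Ormdl3 made up 44.8 ± 2.85% of the 3 ORMDL levels in CEP and 36.4 ± 0.449% in DMSO by GENCODE M21 lengths, and 39.7 ± 2.53% in CEP and 31.9 ± 0.515% in DMSO by the table's lengths. Neither pair of groups overlapped. Ormdl2 shares 1114 exon bases with Dnajc14 on the opposite strand, and the strand setting of the counting is not given in the sources used here.

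In ceramide assembly 5 of 5 tested genes rose, and in each the CEP libraries were all above the DMSO libraries. Among all genes tested 20.1% rose, and the CEP libraries lay above without overlap for 25.2% and below for 24.7%. Kdsr, the reductase of 3-ketodihydrosphingosine, had 98.4, 109.7 and 110.4 CPM in CEP against 66.4, 75.8 and 67.1 CPM in DMSO. Its lowest CEP library was well above its highest DMSO library, and the log2 fold change was 0.61 ± 0.0644 (SE, edgeR adjusted p = 6.94e-06). Degs1 makes the double bond that turns dihydroceramide into ceramide, and it had 237, 243 and 252 CPM in CEP against 186, 191 and 198 CPM in DMSO (0.35 ± 0.0472, SE, edgeR adjusted p = 6.23e-05). Both genes lie on chromosome 1 (GRCm38.p6), Kdsr (ENSMUSG00000009905) at 106720459 to 106759727 and Degs1 (ENSMUSG00000038633) at 182275772 to 182282804.

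The ceramide synthases between these steps attach the fatty acid, and each isoform prefers certain chain lengths. Cers6, which favours palmitoyl chains, had 53.0, 52.7 and 52.1 CPM in CEP against 41.4, 40.0 and 41.3 CPM in DMSO (0.36 ± 0.0592, SE, edgeR adjusted p = 2.93e-04). Cers5, also a synthase of palmitoyl ceramide, averaged 93.6 ± 5.77 CPM in CEP and 81.1 ± 2.26 CPM in DMSO (SD, n = 3 each), a log2 fold change of 0.21. Cers2, which makes ceramides of very long chains, averaged 219.7 ± 8.55 CPM in CEP and 196 ± 2.57 CPM in DMSO, with a log2 fold change of 0.17. The rises of Cers5 and Cers2 each failed in 1 alternative, Cers5 without CEP replicate 3 (edgeR adjusted p = 0.0586) and Cers2 without DMSO replicate 2 (0.0640). Cers2 shares 75 exon bases with Setdb1 on the opposite strand. Cers4 had 1 count, in DMSO replicate 2, over all 6 libraries.

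Divided by exon length, Cers2 was the most abundant of these synthases, at 59.8 ± 2.32 CPM per kb in CEP and 53.2 ± 0.700 CPM per kb in DMSO. Cers5 stood at 26.4 ± 1.63 and Cers6 at 5.93 ± 0.0513 CPM per kb in CEP, against 22.9 ± 0.637 and 4.61 ± 0.0882 CPM per kb in DMSO (SD, n = 3 each). As a share of the family's level per kb, Cers6 was 6.44 ± 0.206% in CEP and 5.71 ± 0.117% in DMSO, without overlap, while the shares of Cers2 (64.9 ± 1.54% in CEP and 65.9 ± 0.651% in DMSO) and Cers5 overlapped between groups. These lengths are unions of GENCODE M21 exons. The table's own exon lengths gave the same order, with Cers6 at 5.33 ± 0.171% in CEP and 4.71 ± 0.0899% in DMSO.

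**Figure D4:**
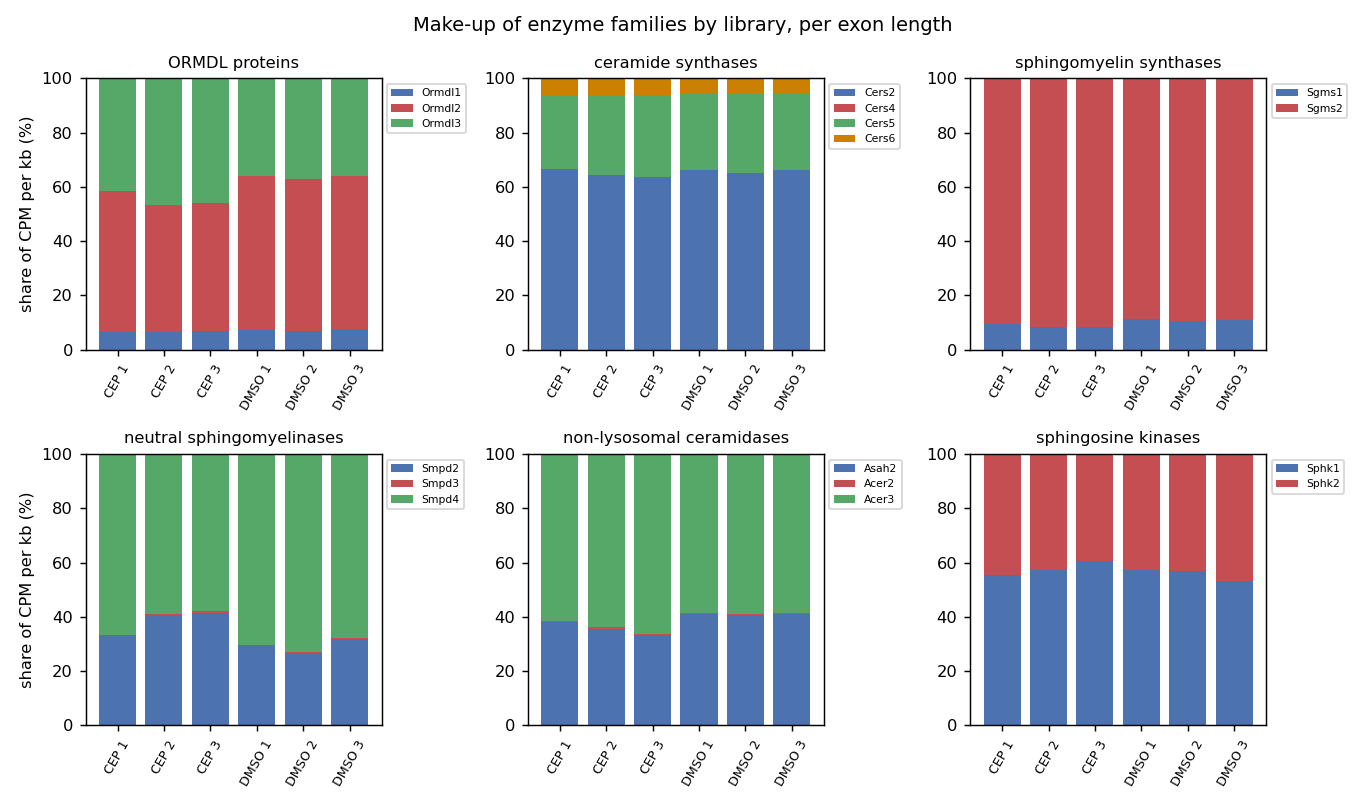
Share of each gene in the summed CPM per kb of GENCODE M21 exon length of its enzyme family (y axis, percent), 1 bar per library, CEP left of DMSO. Ormdl3 takes a larger part in the CEP libraries (44.8% on average) than in DMSO (36.4%), and so does Smpd2 (38.5% against 29.4%), while Cers2 leads its family in every library.

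Of the genes that add head groups to ceramide or carry the products, 7 were tested, of which 4 rose and 1 fell. Over all genes tested 20.1% rose and 18.2% fell. B4galt5, the main lactosylceramide synthase, had 184, 171 and 169 CPM in CEP against 142, 142 and 148 CPM in DMSO. CEP replicate 1 was here the highest CEP library, and the log2 fold change was 0.27 ± 0.0494 (SE, edgeR adjusted p = 6.19e-04). B4galt6, which encodes the other lactosylceramide synthase, had 4, 4 and 1 counts in CEP and 2, 4 and 6 counts in DMSO and was not tested. Ugcg, which makes glucosylceramide and so feeds B4galt5's product, averaged 106 ± 2.49 CPM in CEP and 93.7 ± 0.892 CPM in DMSO (SD, n = 3 each). Its log2 fold change was 0.17 ± 0.0476 (SE, edgeR adjusted p = 0.0103), and the call ended without DMSO replicate 3 (edgeR adjusted p = 0.0532). St3gal5, which adds sialic acid to lactosylceramide to make the ganglioside GM3, averaged 32.1 ± 1.63 CPM in CEP and 33.0 ± 1.13 CPM in DMSO, which did not pass (95% interval of the log2 fold change -0.18 to 0.10).

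The pair of sphingomyelin synthase genes had fold changes of opposite sign. Sgms2, whose product works mainly at the plasma membrane, had 197, 210.4 and 200.1 CPM in CEP against 184, 183 and 178 CPM in DMSO. Its groups did not overlap (0.16 ± 0.0461, SE, edgeR adjusted p = 0.0142), but the call was lost on leaving out CEP replicate 2 or either of DMSO replicates 2 and 3 (edgeR adjusted p = 0.0862, 0.0562 and 0.0894). Sgms1, whose product works in the Golgi, had 34.6, 32.9 and 31.4 CPM in CEP against 40.0, 36.0 and 36.9 CPM in DMSO. It did not pass at -0.19 ± 0.0723 (SE, edgeR adjusted p = 0.0502) although its groups did not overlap, and it passed without CEP replicate 1 (-0.24, edgeR adjusted p = 0.00652), with RLE scaling (0.0455) and with a block for replicate number (0.0481). The 2 fold changes were not tested against each other. Per kb of GENCODE exon length Sgms1 was 8.77 ± 0.541% of the pair in CEP and 10.9 ± 0.458% in DMSO. With the table's lengths it was 2.21 ± 0.147% in CEP and 2.80 ± 0.128% in DMSO, since the table gives Sgms2 509 bases where GENCODE M21 gives 6227.

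Gltp, which encodes a glycolipid transfer protein of the cytosol, fell. It had 65.7, 53.8 and 53.0 CPM in CEP against 67.5, 68.8 and 69.8 CPM in DMSO, so that CEP replicate 1 lay close to the DMSO libraries and the other 2 lay well under them. Its log2 fold change was -0.25 ± 0.0753 (SE, edgeR adjusted p = 0.0162). It was -0.38 without CEP replicate 1, and the call ended without any 1 of CEP replicates 2 and 3 and DMSO replicates 2 and 3 (edgeR adjusted p from 0.0509 to 0.0760). Cerk, the kinase of ceramide, had 18.9, 20.1 and 21.1 CPM in CEP against 16.5, 16.5 and 16.3 CPM in DMSO (0.28 ± 0.0873, SE, edgeR adjusted p = 0.0190). The Cerk call ended without CEP replicate 2 or 3 or DMSO replicate 2 or 3, and with DESeq2, with adjusted p from 0.0529 to 0.0830 in these.

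Of the 5 tested genes that break sphingolipids down outside the lysosome, 2 rose, 0 fell and 3 did not pass. Across all genes tested 38.2% passed, 20.1% higher and 18.2% lower with CEP, and 5 genes are few to set beside these shares. Smpd2, which encodes a neutral sphingomyelinase, had 16.4, 20.7 and 22.3 CPM in CEP against 14.0, 11.4 and 15.5 CPM in DMSO. The groups came close but did not overlap (0.53 ± 0.131, SE, edgeR adjusted p = 0.00634). Smpd2 shares 905 exon bases with Mical1 on the opposite strand, but Mical1 had at most 3 counts in any library. Smpd4, another neutral sphingomyelinase gene, averaged 63.2 ± 2.97 CPM in CEP and 65.6 ± 2.08 CPM in DMSO, which did not pass (95% interval of the log2 fold change -0.17 to 0.06). Smpd2 took 38.5 ± 4.57% of the family's level per kb in CEP and 29.4 ± 2.60% in DMSO by GENCODE M21 lengths, and 25.8 ± 3.67% in CEP and 18.7 ± 1.91% in DMSO by the table's lengths. Smpd3 had 3, 4 and 8 counts in CEP and 1, 2 and 4 counts in DMSO and was not tested.

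Acer3, the gene of alkaline ceramidase 3, rose, with 54.4, 62.9 and 64.6 CPM in CEP against 50.8, 49.6 and 52.9 CPM in DMSO (0.24 ± 0.0699, SE, edgeR adjusted p = 0.0130). The call was lost on leaving out either of CEP replicates 2 and 3 or DMSO replicate 2 (edgeR adjusted p = 0.0587, 0.0664 and 0.0614). Asah2, the neutral ceramidase gene, averaged 25.6 ± 1.05 CPM in CEP and 27.0 ± 1.02 CPM in DMSO, which did not pass (95% interval -0.23 to 0.06). Acer2 had 3 or 4 counts in every library. Gba2, which encodes the non-lysosomal glucosylceramidase, had 7.95, 8.65 and 9.74 CPM in CEP against 9.60, 12.0 and 9.97 CPM in DMSO. The highest CEP library was just above the lowest DMSO library, and the log2 fold change of -0.26 ± 0.130 did not pass (SE, edgeR adjusted p = 0.131). Gba2 also shares exon bases with Creb3 (133) and Rgp1 (159) on the opposite strand.

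Of the 6 genes of sphingosine 1-phosphate handling and export, 4 rose, 0 fell and 2 did not pass. Over all genes tested 20.1% rose and 18.2% fell. The 4 that rose include Spns1, a transporter of the lysosomal membrane. Sgpl1, the lyase that cleaves sphingosine 1-phosphate irreversibly, had 238, 257 and 272 CPM in CEP against 182, 179 and 178 CPM in DMSO. The DMSO libraries were within a few CPM of each other and all CEP libraries lay far above them (0.51 ± 0.0520, SE, edgeR adjusted p = 5.01e-06). Sgpl1 (ENSMUSG00000020097) lies on chromosome 10, 61098642 to 61147703. Sphk1, a kinase that makes sphingosine 1-phosphate, had 30.2, 35.7 and 38.3 CPM in CEP against 27.7, 29.7 and 26.7 CPM in DMSO (0.31 ± 0.0897, SE, edgeR adjusted p = 0.0141). Only CEP replicate 1 came near the DMSO libraries. The Sphk1 call ended without CEP replicate 2 or 3 or DMSO replicate 1 or 3 (edgeR adjusted p from 0.0513 to 0.0776).

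Sphk2, the other sphingosine kinase gene, had 20.98, 23.0 and 21.6 CPM in CEP against 17.9, 19.6 and 20.6 CPM in DMSO. The groups did not overlap, yet it did not pass (0.17 ± 0.0876, SE, edgeR adjusted p = 0.134). It shares 373 exon bases with the abundant ribosomal protein gene Rpl18 on the opposite strand. Per kb, Sphk1 made up 57.9 ± 2.55% of the pair in CEP and 55.8 ± 2.36% in DMSO by GENCODE M21 lengths, and 74.8 ± 1.97% in CEP and 73.1 ± 1.90% in DMSO by the table's lengths. The groups overlapped with both. Sgpp1, a phosphatase that returns sphingosine 1-phosphate to sphingosine, averaged 75.6 ± 0.985 CPM in CEP and 67.9 ± 4.38 CPM in DMSO (SD, n = 3 each). Its call was marginal (0.16 ± 0.0582, SE, edgeR adjusted p = 0.0479) and ended in 10 of the 13 alternatives.

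The transporters Spns1 and Spns2 belong to 1 family, and their fold changes were not tested against each other. Spns1 is a transporter of the lysosomal membrane that exports lysophospholipids, so its place is not outside the lysosome. It had the largest log2 fold change of the 29 tested genes, with 41.3, 46.4 and 52.9 CPM in CEP against 30.2, 26.2 and 26.1 CPM in DMSO (0.77 ± 0.0936, SE, edgeR adjusted p = 3.13e-05). Its groups lay far apart, and the fold change was 0.67 to 0.84 over the alternatives. Spns2, which exports sphingosine 1-phosphate from cells, had 47.7, 49.3 and 51.7 CPM in CEP against 49.9, 49.0 and 51.2 CPM in DMSO. The groups overlapped throughout, and the 95% interval of the log2 fold change was -0.13 to 0.10 (edgeR adjusted p = 0.869). Spns2 shares 131 exon bases with Mybbp1a on the opposite strand, which had 5739 to 9924 counts per library, against 746 to 1001 for Spns2. Spns1 (ENSMUSG00000030741) lies on chromosome 7, 126370060 to 126377450, and Spns2 on chromosome 11.

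Other sphingolipid genes were described by the same fit. Of 19 tested genes of lysosomal sphingolipid breakdown 16 rose, 0 fell and 3 did not pass, where 20.1% rose and 18.2% fell over all genes tested. The median log2 fold change of the 19 was 0.66, beside 0.17 for the 29 genes of synthesis and non-lysosomal turnover. Gla, Galc and Npc1, which encode alpha-galactosidase A, galactosylceramidase and a lysosomal cholesterol exporter, rose by 1.67 ± 0.0960, 0.89 ± 0.0574 and 1.22 ± 0.0787 on the log2 scale (SE). The list also holds genes of other lysosomal work, such as Npc1 and Npc2 of cholesterol export. Its count and median are therefore not of sphingolipid breakdown alone. The summed level of the lysosomal list was 2900.04 to 3271 CPM in CEP and 2093 to 2158 CPM in DMSO. The difference between the lists was not tested, and the lists were chosen with earlier results of these data known.

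Of 14 tested genes that elongate or activate fatty acids for the ceramide synthases 7 rose, 1 fell and 6 did not pass, with a median of 0.16. Over all genes tested 20.1% rose and 18.2% fell. The elongase gene Elovl6, the reductase gene Hsd17b12 and the acyl-CoA synthetase gene Acsl3 rose by 0.33 ± 0.0464, 0.31 ± 0.0473 and 0.33 ± 0.0548 (SE), and Hacd4, of the dehydratase step, fell to 3.97 CPM in CEP against 9.46 CPM in DMSO (-1.25 ± 0.141, SE).

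Of 13 other tested genes of synthesis and turnover 5 rose, 1 fell and 7 did not pass, with a median of 0.07. Over all genes tested 20.1% rose and 18.2% fell. Samd8, a sphingomyelin synthase relative that makes ceramide phosphoethanolamine, rose by 0.52 ± 0.0671 to 67.8 CPM in CEP, against 47.2 CPM in DMSO. The sphingoid base desaturase gene Fads3 rose by 0.26 ± 0.0699, and Col4a3bp, which encodes the ceramide transfer protein CERT, rose by 0.16 ± 0.0468 (SE). Cers1 and Mfsd2b, the other risers, named after their values were seen, stood at 0.976 and 3.27 CPM in CEP. They stood at 0.312 and 1.61 CPM in DMSO, and the libraries of Mfsd2b overlapped. Cers1 had 13, 22 and 14 counts in CEP against 2, 7 and 7 counts in DMSO. It passed the low-count filter only through CEP, so its place among the 5 risers is not independent of its rise. Cptp, the gene of a ceramide 1-phosphate transfer protein, fell (-0.24 ± 0.0712, SE), to 27.8 CPM in CEP against 32.7 CPM in DMSO. Of 10 tested genes of complex gangliosides and globosides 2 rose, 1 fell and 7 did not pass, with a median of -0.03, and these shares were close to or under the 20.1% and 18.2% over all genes tested. B4galt3, a galactosyltransferase, rose by 0.45 ± 0.0781 and the fucosyltransferase gene Fut1 by 1.75 ± 0.392 (SE). Fut1 was at a low level (1.53 CPM in CEP and 0.464 CPM in DMSO). With 27, 21 and 31 counts in CEP against 9, 10 and 4 counts in DMSO, Fut1 passed the low-count filter through its CEP libraries. The plasma membrane sialidase gene Neu3 fell (-0.69 ± 0.236, SE). Among the receptors for sphingosine 1-phosphate 2 of 5 were tested, and S1pr2 rose by 0.35 ± 0.0676 to 76.5 CPM in CEP against 59.8 CPM in DMSO.

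**Figure D5:**
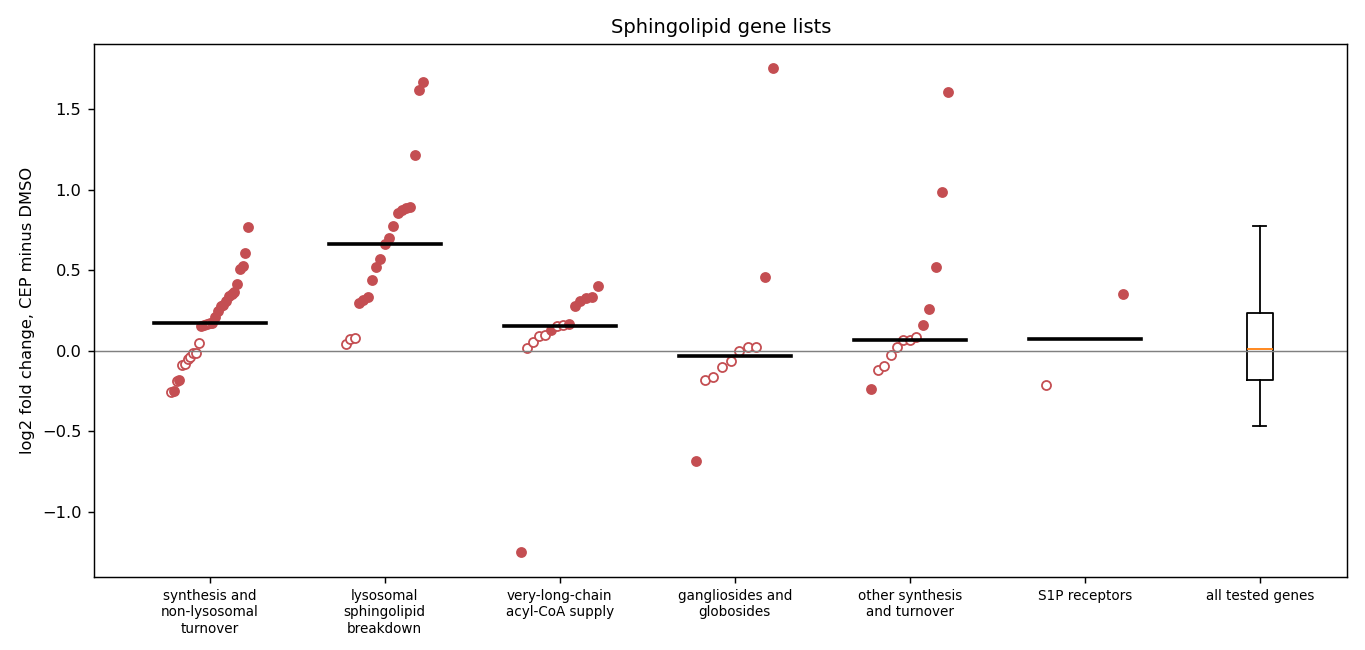
Log2 fold change, CEP minus DMSO (y axis), of each tested gene in 6 sphingolipid lists; filled points passed the adjusted p threshold, black bars are medians, and the box gives the quartiles of all 13405 tested genes with whiskers at the 5th and 95th percentiles. The lysosomal list has its median at 0.66 and no point below 0, and the list of synthesis and non-lysosomal turnover has its median at 0.17 with points on both sides.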

How the data were processed

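The deposited table holds raw read counts, 1 whole number for each Ensembl gene and library, and places genes on GRCm38.p6, per the file headers. It also lists the authors' exon length per gene, whose derivation is not stated. Per the labels' protocols, poly(A) RNA was sequenced with a stranded dUTP kit. The submitters' processing notes name HISAT2, HISAT, HTSeq and DESeq2 without saying what each did, and no version, strand setting or annotation release. The library source is labelled as single cell, whereas the table is bulk.

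Low genes were removed with filterByExpr (at least 10 counts, 15 in total), TMM factors were applied, and edgeR 4.0.16 was used for a robust quasi-likelihood test of CEP minus DMSO with no covariate. P-values were adjusted by Benjamini-Hochberg over 13405 genes. Standard errors are the size of the log2 fold change divided by the root of F. The 95% intervals span 1.96 SE either side, a normal multiple, so they are narrower than the quasi-likelihood test implies. Those of Gba2 (-0.515 to -0.00399) and Sphk2 (0.00117 to 0.344) left out 0, although edgeR gave unadjusted p = 0.0659 and 0.0680. DESeq2 1.42.0, limma 3.58.1 (voom), RLE scaling, library totals, 2 other filters, a replicate block and leaving out each library were alternatives. R 4.3.3 and Python 3.11.15 were used. Exon overlaps and union lengths came from GENCODE M21.

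All 34 genes and, from 5 related lists, up to 3 changed genes a direction with the smallest adjusted p (at most 5 a list) are named. Cers1, Mfsd2b and S1pr1 were added after their values were seen. The members and lists were chosen with earlier results of these data known. The limit that a count of 0 allows covers counting error only.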

Additional observations from a re-analysis of the deposited data

How the results depend on the processing

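The count of genes that rose among the 29 ran from 12 to 17 over the 13 alternatives and stayed within 1.5 times the 17 reported. The genes called higher in each alternative were all among those 17. The count that fell was 2, and it ran from 0 to 3 when 1 library was left out. It was 0 on leaving out any 1 of CEP replicates 2 and 3 and DMSO replicate 2, and 1 on leaving out DMSO replicate 3. With DESeq2 15 rose and 2 fell, with limma-voom 16 and 2, with RLE scaling 16 and 3. Of the 17 rises 8 lost their call in at least 1 alternative and 9 did not. Fold changes of 3 genes near 0, which did not pass, changed sign when a library was left out. Sptlc1 ran from -0.0103 (without CEP replicate 3) to 0.0719, Ormdl1 from -0.0433 to 0.0172 (without DMSO replicate 3; 0.0144 without CEP replicate 2), and Spns2 from -0.0460 to 5.72e-04 (without DMSO replicate 3). The cause was not tested.

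No pairing by the shared replicate numbers was seen. Deviations of same-numbered libraries from their group means correlated at -0.04, 0.03 and -0.06, and only CEP replicate 2 correlated best with its own number. With 3 libraries a group, and CEP replicate 1 apart from the other CEP libraries, this check has little power to detect a shared culture or day. With the replicate number as a block 16 genes rose and 3 fell, and 4896 genes changed in the whole table against 5125 without it. Counts of 5 untested genes, at most 8 in any library, limit what can be said of them.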
